A study of Homo sapiens with 2 samples.

Results

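Mitosis and spindle checkpoint genes were read in outgrowths of human embryoid bodies grown with or without SB-431542, a compound that blocks the receptor kinases through which TGF-β, activin and nodal signal. The set held 45 named genes and was made up of every probe set (a group of oligonucleotides read together as 1 value) that the array's annotation gives to one of these genes alone. These came to 90 probe sets. All 45 genes were represented, of 19775 genes that the annotation pairs with at least 1 such probe set. The cells were HUES9, a human embryonic stem cell line, at passage 32. Embryoid bodies were kept for 10 days, and their outgrowth on a fibronectin coat in defined medium was passaged. The SB-OG culture received SB-431542 at 10 µM in the embryoid body stage and 1 µM in the outgrowth stage. The control-OG culture received the vehicle DMSO at 0.01%. Both came from 1 cell line. RNA of 3 mixed samples per condition, taken at passage 5 of the outgrowth, was read on 1 array. With 1 array per condition, no value below has a replicate, an error over cultures or a p-value.

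Entry into mitosis is driven by the kinase CDK1 bound to a B-type cyclin and released from inhibition by CDC25 phosphatases. The spindle checkpoint, in which MAD2 and BUB proteins sit on unattached kinetochores, holds back the ubiquitin ligase APC/C until every chromosome is attached, after which cyclin B and securin are degraded and the cell divides. Transcripts of these genes accumulate in G2 and mitosis and decline when cells leave the cycle, through a promoter element called the CHR that the DREAM complex binds in resting cells and the MuvB, B-MYB and FOXM1 proteins use in dividing ones. In a mixed culture their level therefore follows how many cells divide as well as how much each cell makes, and in RNA of whole cultures these cannot be told apart.

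Most of the mitosis genes had a higher signal in SB-OG, and the differences were moderate. Of the 45, 43 were higher in SB-OG and 2, PLK1 and PTTG1, were lower. The median log2 difference, SB-OG minus control-OG, was 0.75, a 1.68-fold higher signal, with quartiles of 0.44 and 0.96. Over all 13212 genes above background on 1 or both arrays, the median was -0.03 and 48.2% were higher in SB-OG by any amount. At least 2-fold higher were 11 members, or 24.4% of them, against 12.3% of all genes measured. At least 1.5-fold higher were 29 members, or 64.4%, against 22.1% of all genes. None of the members was 2-fold lower or 1.5-fold lower, against 13% and 23.6% of all genes measured. MAD2L1 lay just above 2-fold at 1.07 on the log2 scale and AURKB just below it at 0.96. The members were chosen as a functional group with earlier results of these arrays known, so these counts describe the arrays and are not a test.

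Here a gene takes the value of its brightest probe set. Background is the 95th percentile of 188 probe sets for olfactory and taste receptors, keratin-associated proteins, defensins and late cornified envelope genes, which these cells are assumed not to use. For control-OG this intensity was 27.2 and for SB-OG it was 23.1. All 45 members were above it on both arrays, the dimmest control-OG value lying 1.81 times over it. The median intensity of the whole array was 22.6 and 21.8, and the ratio of 3′ to 5′ signal for GAPDH was 0.995 and 0.958. As a technical spread, probe sets of 1 gene gave log2 differences with an SD of 0.49 over 5237 genes, and of 0.25 over the 20 members read by 2 or more detected probe sets. Of the 45 differences, 32 were larger than 0.49 and 13 were not. The share of all genes past 0.49 was not counted. At 1.5-fold, a larger cut, 22.1% of all genes measured were higher in SB-OG and 23.6% lower, so differences of that size were common. The spread between probe sets comes from probes that met the same RNA and holds no difference between cultures.

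The size of the shift depended on how the arrays were set to 1 level, since the deposited values appear scaled to a common mean (149.98 on both after the lowest and highest 2% of probe sets were left out). When SB-OG was rescaled on the 9 probe sets of the spiked hybridisation controls, all genes moved up by 0.48 on the log2 scale. The member median was then 1.23, and PLK1 went from lower to slightly higher in SB-OG, at 0.10. With that scaling 30 of the 45 members (66.7%) were at least 2-fold higher, against 24.4% of all genes, of which 7.14% were 2-fold lower. Rescaling on a list of 12 housekeeping genes moved all genes up by 0.204. In both cases the member median was 0.78 above that of all genes, a gap that adding 1 constant to all genes cannot change.

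**Figure D1:**
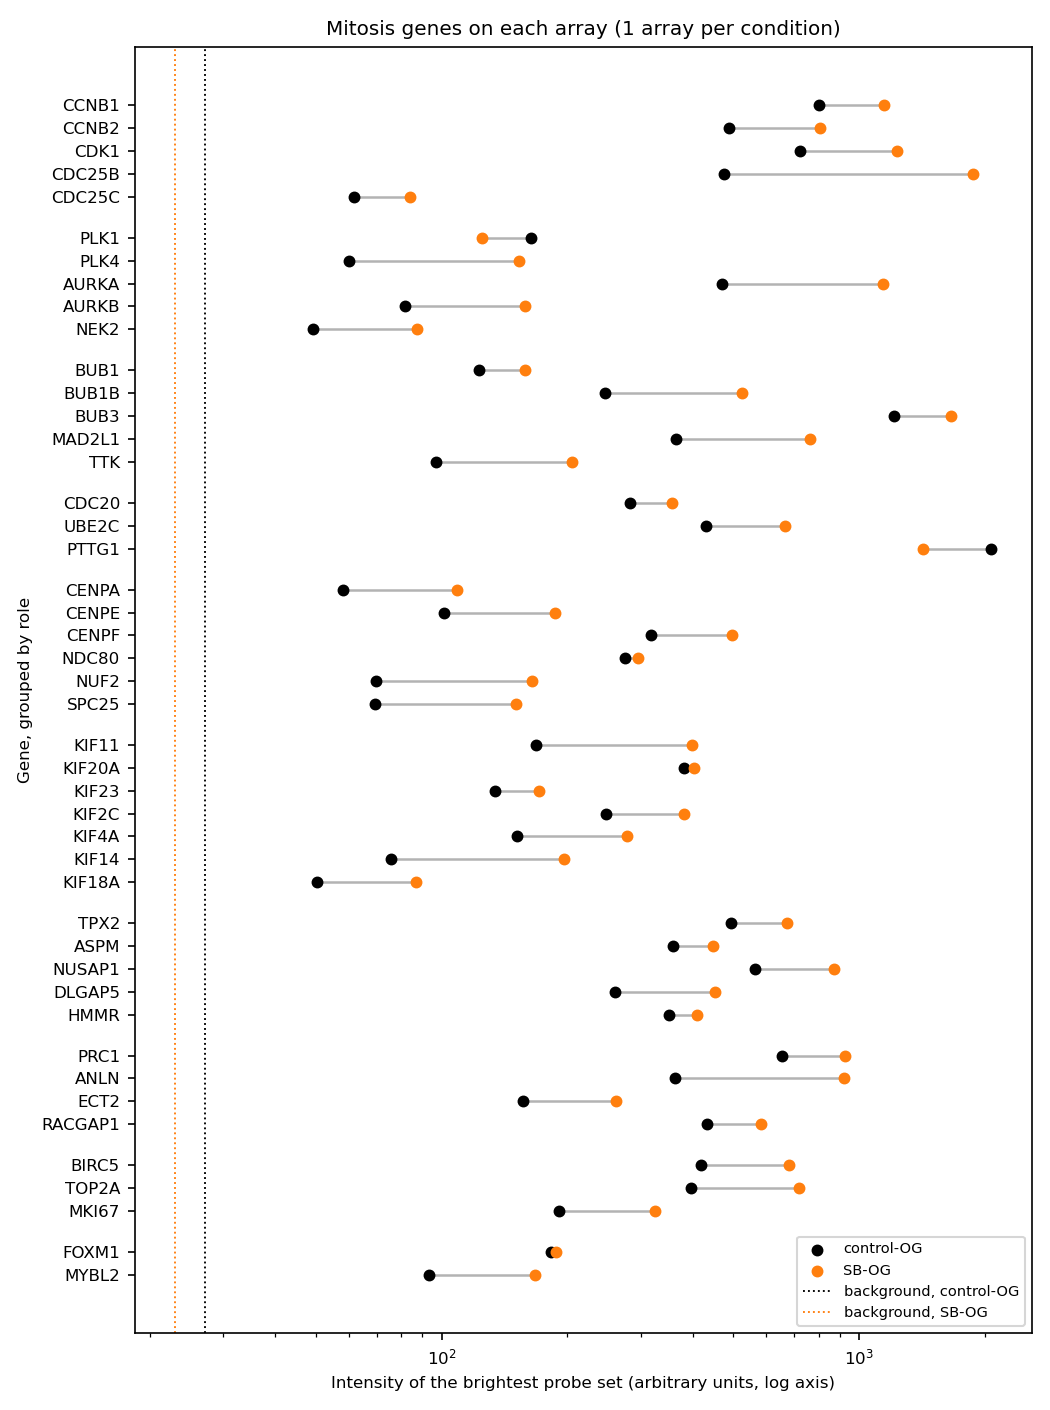
Intensity (arbitrary units, log axis) of the brightest probe set of each of the 45 mitosis genes on the control-OG array (black) and the SB-OG array (orange), with the background level of each array as a dotted line; 1 array per condition, no error bars. The orange point is to the right for 43 genes and to the left for PLK1 and PTTG1. PLK1 turned when SB-OG was scaled on hybridisation controls, and FOXM1 under quantile and lowess correction. AURKB, CENPF and CDC25C turned with the mean of all probe sets, and ECT2 with probe sets whose names carry no _s, _x or _a. Intensities of different genes come from different probes and are not comparable.

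The promoters of these genes are shown because the members moved together and because CHR and CCAAT elements near the start are a known feature of genes used in G2 and mitosis. CCAAT boxes bind the activator NF-Y. RefSeq promoter windows of 250 bases before to 50 after a start (GRCh38.p14) were at hand for 37 of the 45 members, 49 windows in all. The stretches below are the 120 bases before the most upstream start, read 5′ to 3′ on the strand of the gene. Capitals mark CCAAT and the CHR on either strand, and adjoining matches run together. The main CHR form searched was TTTGAA, and the other forms were TTCGAA as well as the form TTTAAA. They were picked to show cyclin B, the checkpoint target CDC20, both members that were lower in SB-OG, a kinesin, a midzone protein and MKI67.
CCNB1, chr5:69167030-69167149, plus strand: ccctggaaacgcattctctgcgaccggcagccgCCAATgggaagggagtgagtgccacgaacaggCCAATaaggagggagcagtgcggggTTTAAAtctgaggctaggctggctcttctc
CCNB2, chr15:59105026-59105145, plus strand: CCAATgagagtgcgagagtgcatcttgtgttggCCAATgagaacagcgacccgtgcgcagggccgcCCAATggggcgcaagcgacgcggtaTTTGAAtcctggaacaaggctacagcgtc
CDC20, chr1:43358861-43358980, plus strand: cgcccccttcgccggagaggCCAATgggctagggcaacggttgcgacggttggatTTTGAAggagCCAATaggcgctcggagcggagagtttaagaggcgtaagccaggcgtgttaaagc
PLK1, chr16:23678769-23678888, plus strand: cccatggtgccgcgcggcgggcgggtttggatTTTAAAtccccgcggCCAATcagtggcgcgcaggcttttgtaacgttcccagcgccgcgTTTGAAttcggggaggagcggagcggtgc
PTTG1, chr5:160421735-160421854, plus strand: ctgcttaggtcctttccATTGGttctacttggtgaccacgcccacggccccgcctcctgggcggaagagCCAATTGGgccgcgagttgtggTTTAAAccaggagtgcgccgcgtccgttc
KIF11, chr10:92593010-92593129, plus strand: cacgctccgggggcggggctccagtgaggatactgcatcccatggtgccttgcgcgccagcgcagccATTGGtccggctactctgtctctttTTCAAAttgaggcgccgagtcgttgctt
PRC1, chr15:90994536-90994655, minus strand: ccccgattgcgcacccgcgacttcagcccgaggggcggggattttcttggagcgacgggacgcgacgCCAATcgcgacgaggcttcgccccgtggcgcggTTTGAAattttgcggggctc
MKI67, chr10:128126424-128126543, minus strand: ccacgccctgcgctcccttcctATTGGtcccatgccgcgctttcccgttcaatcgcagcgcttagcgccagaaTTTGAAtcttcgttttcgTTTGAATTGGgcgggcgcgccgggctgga

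In these 8 stretches, which do not stand for all members, a CHR form began between positions -65 and -20 from the start, with a CCAAT box upstream of it. In CENPF the CHR form TTTAAA began at -115, and TTTGAA began at 41, after the start. The most upstream windows of CDC25B, CDC25C and MYBL2 held no match. Other windows of CDC25C held TTTGAA and CCAAT, and other windows of CDC25B held CCAAT. In CCNB2 and PLK1 the match TTTGAA began at -29, and in PTTG1 the form TTTAAA began at -29. Over all windows, TTTGAA on either strand was found for 27 of 37 members (73.0%), against 18.2% of the 27305 genes in the RefSeq table and 15.8% of its protein-coding genes. CCAAT was found for 30 members (81.1%), against 39.7% of all genes. Both were found for 23 members (62.2%), against 8.37%. The E2F forms TTTGGCGC, TTTCGCGC, TTTCCCGC and TTTGCCGC were found for 3 members, CDK1, CENPA and NUSAP1. Of 39 genes of DNA replication and the G1/S step with a window, 1 held TTTGAA, 23 held CCAAT and 21 (53.8%) held an E2F form, against 3.99% of all genes. The 23 genes with TTTGAA and CCAAT had a median log2 difference of 0.77 and ranged from -0.39 to 1.38. The 4 with TTTGAA only, ANLN, BUB1B, NDC80 and NUF2, had a median of 1.16 and ranged from 0.10 to 1.35. The 7 with CCAAT only had a median of 0.52 and ranged from -0.55 to 1.98, from PTTG1 to CDC25B. The 3 with neither, CENPE, KIF2C and MYBL2, had a median of 0.85. These groups are small, their ranges overlap and no test was made. A match of letters is a description and not a tested site.

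**Figure D2:**
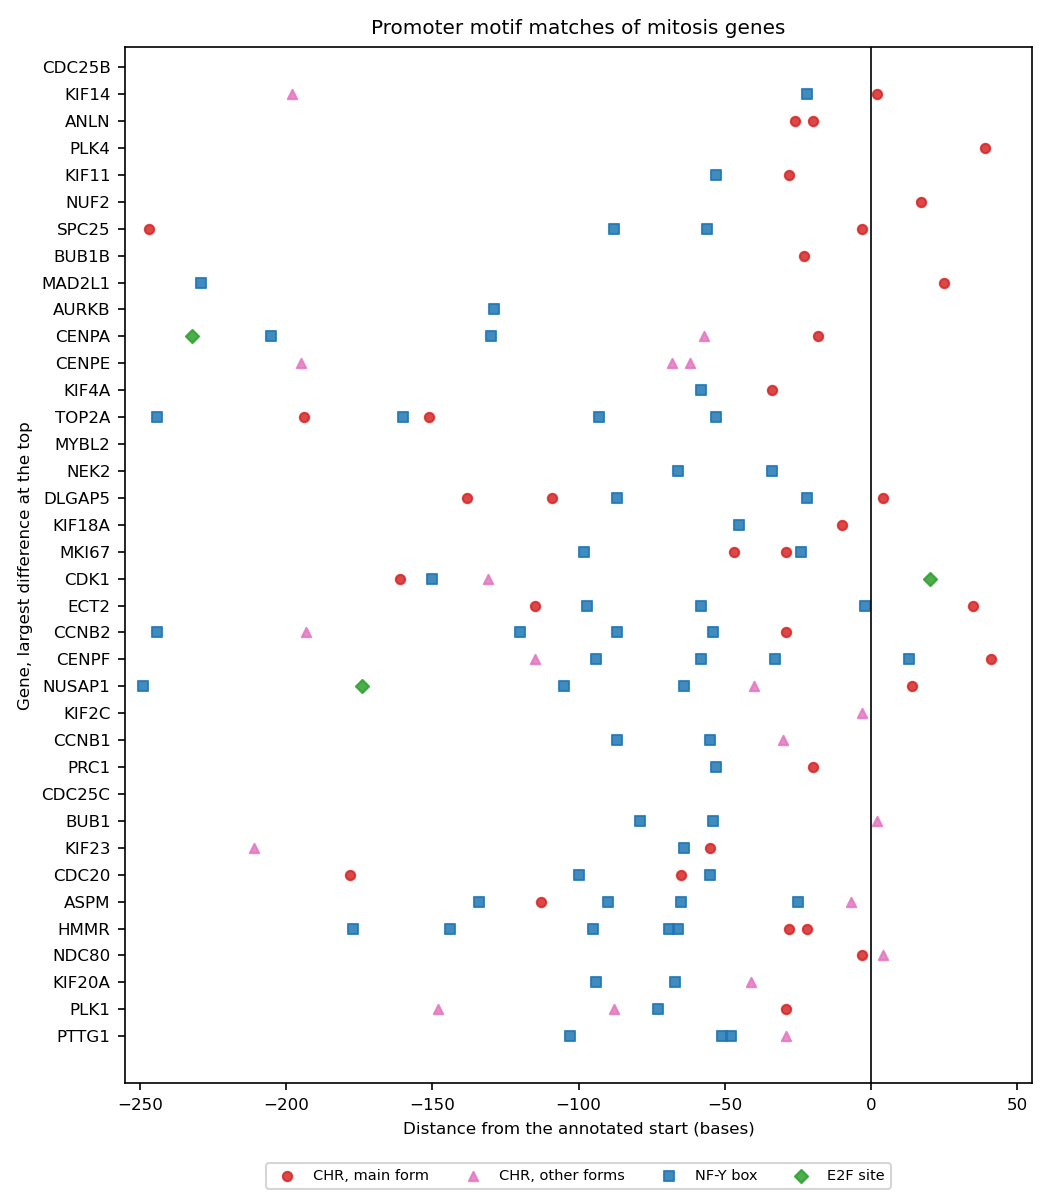
Positions of motif matches (either strand, first base of the match) in the most upstream promoter window of the 37 members with one, as distance in bases from the annotated start, with genes ordered from the largest log2 difference at the top to PTTG1 at the bottom. In this window CHR matches (red and pink) and NF-Y box matches (blue) are denser in the genes at the bottom than in those at the top. Further windows, as for CDC25B (4 windows in all) and PLK4 (3), are not drawn, so whole promoters are not compared. The only CHR match is after the start in PLK4, NUF2 and MAD2L1, and also in BUB1, lower down. CDC25B, CDC25C and MYBL2 have no match in this window.

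Among the genes of the cyclin B and CDK1 engine, all 5 were higher in SB-OG and 3 by at least 1.5-fold. CDC25B, the phosphatase that starts CDK1 activation at the centrosome, had the largest difference of all members, its intensity being 475 in control-OG and 1871 in SB-OG, or 3.94-fold. The gene lies at chr20:3786951-3806115 (RefSeq, GRCh38.p14, as for the genes below) and was read by 1 probe set only. Its sister phosphatase CDC25C went from 61.7 to 84.2, 1.36-fold. With a probe set under background on both arrays averaged in, CDC25C was at -0.31 on the log2 scale. CDK1, the kinase itself, went from 723 to 1232, 1.70-fold, with its other probe sets at log2 differences of 0.87 and 1.38. CCNB2 went from 488 to 806, 1.65-fold. CCNB1, the cyclin that carries CDK1 into the nucleus, went from 802 to 1148, 1.43-fold, and a dimmer probe set gave 0.84. Kinase and cyclins thus differed by less than 2-fold by their brightest probe sets. A second CCNB2 probe set, above background on control-OG only at 51.4, went the other way.

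Of the 5 mitotic kinases, 4 were higher in SB-OG and 1 was lower. PLK4, which starts centriole duplication, went from 60.1 to 153, 2.55-fold higher in SB-OG. AURKA, the kinase of centrosomes and spindle poles, went from 468 to 1139, 2.43-fold, and a second probe set gave 1.18 on the log2 scale. AURKB, the kinase of the chromosomal passenger complex, went from 81.9 to 159, 1.94-fold, but was at -0.21 on the log2 scale when a probe set under background on both arrays was averaged in. NEK2, a kinase of centrosome separation, went from 49.3 to 87.3, 1.77-fold. PLK1, which acts from mitotic entry to cytokinesis, was the exception, with 164 on control-OG and 125 on SB-OG, 1.31-fold lower by its 1 probe set. Its log2 difference of -0.39 was within the spread between probe sets of 1 gene.

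The spindle checkpoint genes were all higher by their brightest probe sets. BUB1B, which encodes the APC/C inhibitor BUBR1, went from 247 to 523, 2.12-fold. TTK, the kinase MPS1 that starts checkpoint signalling, went from 97.1 to 205, 2.11-fold. MAD2L1, which encodes MAD2, went from 365 to 764, 2.09-fold, and its other probe sets gave 0.36 and 0.59 on the log2 scale, the first of them a bound because it was above background on SB-OG only. These 3 genes lay close together by their brightest probe sets, and BUB1B and TTK had 1 probe set each. The MAD2L1 probe set at 0.59 was above background on both arrays and lay near the second BUB1 probe set, at 0.56. BUB3, an adaptor also present outside mitosis, went from 1211 to 1663, 1.37-fold, and its other probe sets above background gave -0.11 to 0.29. BUB1, the kinetochore kinase, went from 123 to 158, 1.28-fold, with a second probe set at 0.56.

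The genes that act on the other side of the checkpoint had the lowest median of the 10 role groups, 0.34 over 3 genes. UBE2C, the ubiquitin-conjugating enzyme of the APC/C, went from 431 to 664, 1.54-fold. CDC20, the APC/C activator that the checkpoint captures, went from 282 to 357, 1.27-fold. PTTG1, securin, the inhibitor of separase, went from 2073 to 1420, 1.46-fold lower in SB-OG and the most negative value among the members. It lies at chr5:160421855-160428744. Each of these genes had 1 probe set. That of PTTG1 is of a type that can match related sequences, and PTTG1 has near-identical copies in the genome, so its signal may be shared. The brightest probe sets of BUB3, CENPA and FOXM1 are of the same type, and CENPA and FOXM1 have no other.

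Of the centromere and kinetochore genes, all 6 were higher and 5 by at least 1.5-fold. NUF2 and SPC25, subunits of the NDC80 complex that binds microtubules, went from 69.8 to 164 and from 69.4 to 151, 2.35-fold and 2.18-fold. NDC80, the subunit that names that complex, was at 275 and 296, 1.08-fold apart. The readings of subunits of 1 complex thus differed, each by a single probe set. NUF2 and SPC25 were dimmer on control-OG, at 2.57 and 2.56 times background, against 10.1 times for NDC80. CENPA, the histone H3 variant of centromeres, was 1.88-fold higher (58.0 and 109), the kinesin CENPE 1.85-fold (101 and 187) and the large kinetochore protein CENPF 1.57-fold (318 and 497). With the mean of all its probe sets, 1 of them under background on both arrays, CENPF was at -0.60 on the log2 scale.

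The kinesins, the motor proteins of the spindle, were all higher, with log2 differences from 0.08 to 1.38. KIF14, a motor of cytokinesis at chr1:200551497-200620751, went from 75.5 to 196, 2.60-fold, and its second probe set gave 1.53 on the log2 scale. KIF11, the motor that pushes spindle poles apart, went from 168 to 398, 2.37-fold. KIF4A, a chromosome and midzone motor, was 1.84-fold higher, KIF18A 1.73-fold and the microtubule depolymerase KIF2C 1.54-fold, the last with a dimmer probe set at 1.15 on the log2 scale. KIF4A has a near-identical retrocopy, and the share of its signal from that copy is unknown. The central spindle motors were nearer to no difference, KIF23 at 134 and 171 (1.27-fold) and KIF20A at 380 and 402 (1.06-fold).

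Spindle assembly genes were higher in SB-OG without reaching 2-fold. DLGAP5, a microtubule-stabilising protein, went from 261 to 451, 1.73-fold. NUSAP1, a microtubule bundling protein, went from 564 to 873, 1.55-fold, and a dimmer probe set gave 1.13 on the log2 scale. TPX2, the activator of AURKA on the spindle, went from 494 to 672, 1.36-fold, less than AURKA itself. ASPM and HMMR, both of spindle poles, were 1.25-fold and 1.17-fold higher, and 1 of 2 further ASPM probe sets was at -0.06. In cytokinesis, ANLN, the anillin that links actin and myosin in the contractile ring, went from 362 to 922, 2.55-fold, and its second probe set gave 1.17. ECT2, the exchange factor that activates RhoA at the cell equator, was 1.68-fold higher (156 and 262), the midzone bundler PRC1 1.41-fold (654 and 925) and RACGAP1, the partner of ECT2 and KIF23, 1.35-fold (433 and 584). The other ECT2 probe sets gave 0.17 and -0.36, the latter above background on control-OG only.

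MKI67, the usual marker of cycling cells, was higher by all 4 of its probe sets, by 0.59 or more on the log2 scale, its brightest going from 191 to 325. TOP2A, the topoisomerase that untangles sister chromatids, went from 396 to 720, 1.82-fold, with its second probe set above background at 0.75. BIRC5, survivin, of the passenger complex, was higher by all 4 probe sets, from 0.20 to 0.70 on the log2 scale, its brightest going from 418 to 679. Of the transcription factors that drive the programme, MYBL2, which encodes B-MYB, went from 93.1 to 168, 1.80-fold. FOXM1 was at 182 and 188 by its 1 probe set, 1.03-fold apart, and turned to slightly lower in SB-OG under quantile and lowess correction.

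The count across probe sets overlaps that across genes, because it takes in the brightest probe set of each of the 45 members. Of the 90 probe sets, 13 were under background on both arrays, 4 were above it on 1 array only, and 73 on both. Of those 73, 68 were higher and 5 lower in SB-OG, with a median of 0.66, while 51.0% of 19626 named probe sets above background on both arrays were higher. The 5 lower ones were those of PLK1 and PTTG1, 2 of the 4 for BUB3 and 1 of the 3 for ASPM. In 18 of the 20 members with several such probe sets, all pointed one way. In 24 members only 1 probe set was above background, so their values have no second reading.

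**Figure D3:**
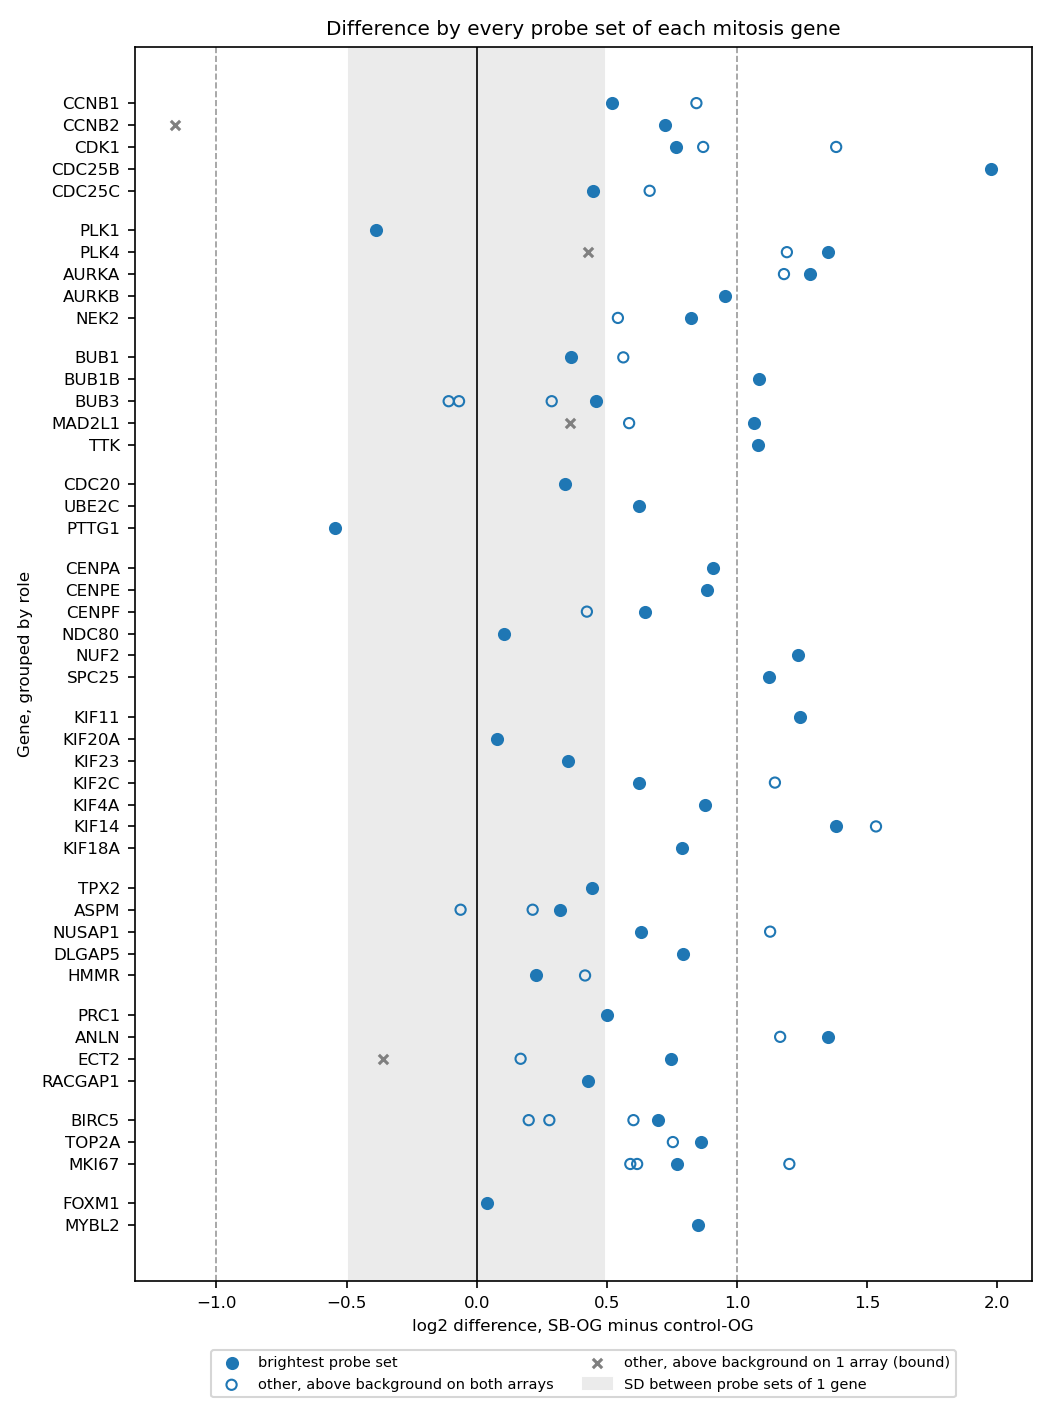
Log2 difference, SB-OG minus control-OG, by each probe set above background of the 45 mitosis genes: filled points for the brightest probe set, open points for others above background on both arrays, crosses for bounds; dashed lines mark 2-fold and the grey band 1 SD (0.49) between probe sets of 1 gene. Points lie mostly between 0 and 1.5, and the crosses of CCNB2 and ECT2 oppose the brightest probe set; scaling on hybridisation controls would move every point up by 0.48 and take PLK1 past 0, and quantile or lowess correction would take FOXM1 under 0.

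Other genes of the same machinery, from lists that do not hold the members, had medians on the same side except those of the APC/C. For the counts that follow, 12.3% of all genes measured were at least 2-fold higher and 13% at least 2-fold lower. Of 30 further kinetochore, centromere and passenger genes measured, 8 (26.7%) were at least 2-fold higher and none 2-fold lower (median 0.64). CENPK, a subunit of the inner kinetochore, was 4.12-fold higher, SPC24, the direct partner of SPC25, 3.58-fold, CENPU 2.75-fold and OIP5 2.49-fold, though a second SPC24 probe set was at 0.10 on the log2 scale. Of 26 further kinesin and spindle genes, 8 (30.8%) were 2-fold higher and none 2-fold lower (median 0.53). They were led by KIF20B (4.25-fold), the minus-end motor KIFC1 (3.99-fold), FAM83D (2.54-fold) and the abscission protein CEP55 (2.40-fold). Condensin and cohesin genes, which shape and hold chromosomes, were 2-fold higher for 4 of 20 (20%, median 0.46), among them the condensin subunits NCAPH (2.27-fold) and NCAPG (2.20-fold). At least 1.5-fold higher were 5 of the 20 (25%), near the 22.1% of all genes measured. The cohesin genes SMC3 and NIPBL were 2.07-fold and 2.05-fold higher by their brightest probe sets, and a NIPBL probe set was at -0.26. Of 15 regulators of G2 entry and mitotic exit, 7 (46.7%) were 2-fold higher and none 2-fold lower (median 0.78). CDC25A was 3.52-fold, FBXW7 3.14-fold, CDC14B 2.86-fold and CCNA2, the cyclin of S and G2, 2.76-fold higher, with other CDC25A probe sets at 0.06 to 0.42.

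The subunits and regulators of the APC/C, the ligase that CDC20 and UBE2C serve, stood nearer to no difference. Of 16 measured, 8 were higher and 8 lower, none by 2-fold, with a median of -0.04. ANAPC15, a subunit that helps to disassemble the checkpoint complex, was 1.84-fold lower and FZR1, the APC/C activator after mitosis, 1.64-fold lower, but other FZR1 probe sets were at 0.16 to 0.82. ANAPC7 was 1.51-fold higher. Under the scaling on hybridisation controls, the APC/C median would be 0.44, below the 0.45 of all genes measured with it. Genes of DNA replication and the G1/S step, which are used before mitosis in the same cycle, had a median of 0.81, with 19 of 46 (41.3%) at least 2-fold higher, 29 (63.0%) at least 1.5-fold higher and none 2-fold lower. The highest were the transcription factor E2F2 (4.14-fold), MCM10 (3.80-fold), POLA1 (3.67-fold) and UHRF1 (3.53-fold), though a second E2F2 probe set was at 0.16 on the log2 scale. A median of 0.75 for the mitosis genes beside 0.81 for these does not set the groups apart, and no test of the difference was possible.

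**Figure D4:**
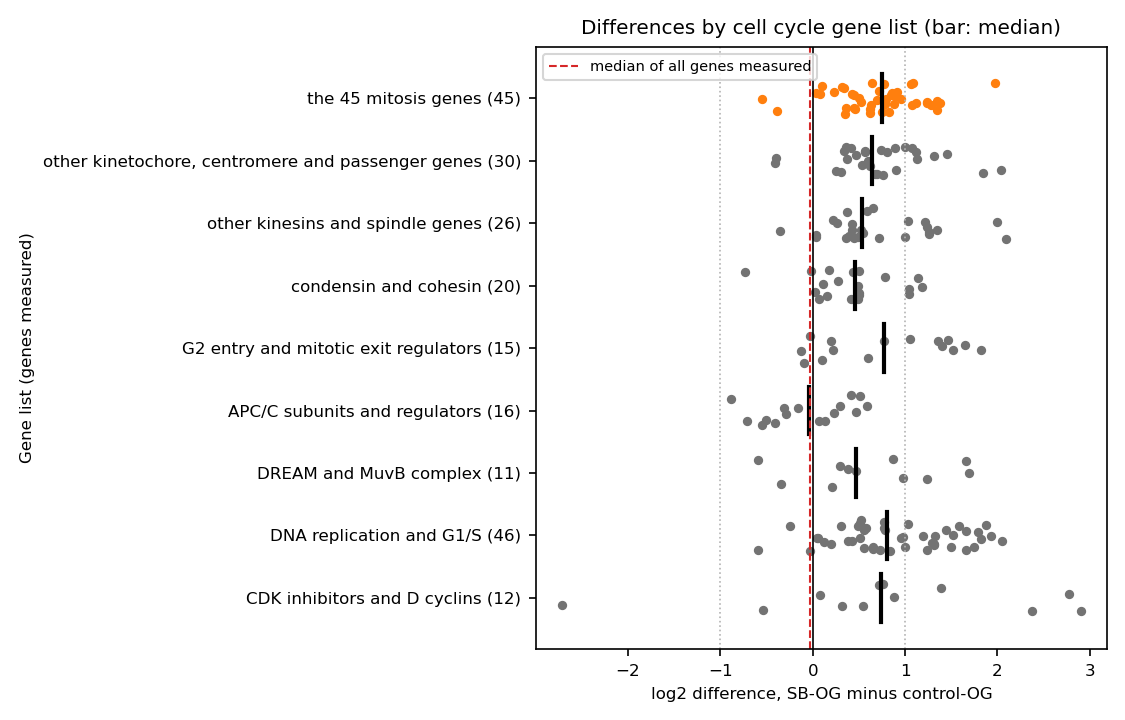
Log2 difference, SB-OG minus control-OG, of each gene measured in the 45 mitosis genes (orange) and in 8 other cell cycle lists (grey), with the list median as a black bar, the median of all genes measured (-0.03) as a dashed red line and 2-fold as dotted lines; vertical scatter within a list has no meaning. The orange bar is at 0.75, the DNA replication and G1/S bar at 0.81 and the APC/C bar at -0.04; scaling on hybridisation controls adds 0.48 to every value and turns the APC/C bar positive.

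The cultures also differed in markers of cell types, and the part this plays in the mitosis genes was not tested. All 20 markers of differentiated skeletal muscle, a tissue whose mature fibres do not divide, had at least a 2-fold higher signal in SB-OG, their intensities summing to 1405 for control-OG and 100582 for SB-OG. Of 7 muscle progenitor markers with a probe set, 6 were measured and all 6 were 2-fold higher, with sums of 505 and 1845. PAX7, a progenitor marker, was 21.2-fold higher, and MYF5 was not above background on either array. Of 15 mesenchymal stromal markers, all above background on both arrays, 9 were 2-fold lower and 1 higher, with sums of 158027 and 78600. Of 11 simple epithelial markers, 6 were measured and 5 of them, KRT8, KRT18, KRT19, DSP and DSG2, were 2-fold lower (sums 18100.5 and 525). The sixth, ESRP1, was above background on SB-OG alone, at 26.6, and has no direction. EPCAM, CLDN3, CLDN4, CLDN7 and GRHL2 were not above background on either array. Of the endothelial markers 3 of 5 measured were 2-fold lower (sums 2094 and 155), with CDH5 not above background. Neural markers were 2-fold higher for 3 and lower for 1 of 6 (sums 6891 and 11206). Of the pluripotent stem cell markers, 5 of 13 with a probe set were measured (sums 342 and 490) and NANOG, LIN28A and ZFP42 were not above background on either array. SOX2, also a neural gene, was above background on SB-OG only and at least 5.42-fold higher there, although another of its probe sets was at -0.07 on the log2 scale, and CDH1 likewise at least 3.05-fold higher. SALL4 and UTF1 were above background on control-OG only, and DNMT3B was at 120 and 149. A sum compares the same probe sets on both arrays and follows its brightest ones, in the neural list TUBB3 (4141 and 6918) and STMN2 (2606 and 24.3).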

How the data were processed

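The deposited values were linear intensities, 1 per probe set and array, of RNA from the control-OG and SB-OG cultures. For the summarisation software of the authors, the sources used here give no name. From the values, both arrays had the same trimmed mean, as after scaling to a common target. The platform annotation gave 1 gene to 41091 probe sets, several to 1801 and none to 11721, besides 62 controls, and those with a single gene were kept. A gene took its brightest probe set by mean log2 intensity. Values under background were set to it, and a gene under background on both arrays was not measured. A difference is the log2 intensity of SB-OG less that of control-OG. Thresholds were 2-fold and 1.5-fold. With 1 array per condition no test was made, and the number of arrays limits the precision. All members are described; of the other lists, the genes with the largest differences of at least 1.5-fold, up to 4 a list, are named, and LIN37 was named after its value was seen. The members and lists were chosen with earlier results of these data known, and the promoters printed were picked after values were seen. Alternatives were 4 other scalings or corrections of the arrays besides centring on the median, other rules for probe sets and background, and a pseudocount of 16. The calculation was tested on simulated arrays, with known changes in bright genes only and noise far below the spread between probe sets. That checks the arithmetic and not the differences of dim members. Python 3.11.15, pandas 2.3.3, numpy 2.4.6, scipy 1.17.1, statsmodels 0.14.6 and matplotlib 3.10.9 were used.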

Additional observations from a re-analysis of the deposited data

How the results depend on the processing

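The member median stayed above that of all genes under all 10 alternatives, by 0.67 to 0.80 on the log2 scale. Not all of these could change that gap. Centring on the median and scaling on hybridisation controls or the housekeeping list add a constant, so the gap stayed at 0.78. Leaving out the background floor, or placing background at the 99th percentile, left the member median at 0.75 and moved only that of all genes. Scaling on hybridisation controls gave a median of 1.23 and 30 members at least 2-fold higher, and scaling on the housekeeping list gave 0.95 and 18 (40% of members, against 16.3% of all genes), because each adds a constant to all genes. With the mean of all probe sets, which takes in those under background, AURKB was at -0.21 and CENPF at -0.60, the latter being 1 member at least 1.5-fold lower. With probe sets whose names carry no _s, _x or _a, which measured 29 members, 7 were at least 2-fold higher (24.1%, against 13.4% of all genes) and ECT2 was at -0.36, from a probe set above background on control-OG only. PLK1 was at 0.10 with hybridisation controls. FOXM1 was at -0.05 with quantile normalization and -0.03 with lowess correction, and CDC25C at -0.31 with the mean of all probe sets. PTTG1 was lower in each alternative that measured it. Members near background, such as NEK2 and KIF18A, have the least signal to carry a difference. No paired analysis was possible because each condition has 1 array.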

Other observations

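Some regulators of the G1 phase, among them inhibitors of CDKs, had larger differences than any mitosis gene, though the median of their list was not larger. Of 12 CDK inhibitors, D cyclins and partner kinases measured, 4 (33.3%) were at least 2-fold higher, against 12.3% of all genes measured. At least 2-fold lower was 1 gene. The median log2 difference was 0.74, beside 0.75 for the mitosis genes. CDK6, the kinase partner of D cyclins, went from 337 to 2520, 7.49-fold, although its other probe sets ranged from 0.20 to 3.17 on the log2 scale. CDKN1C, which encodes the CDK inhibitor p57, went from 830 to 5679, 6.84-fold. CCND3, cyclin D3, went from 452 to 2337, 5.17-fold. CDKN2B, which encodes the inhibitor p15 and is a known target of TGF-β signalling, went from 730 to 111, 6.57-fold lower. Neither CCND3 nor CDKN2B had another probe set above background.

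A list of DREAM and MuvB genes that also held RB1, itself not a subunit of DREAM, had 11 genes measured. Of these, 3 (27.3%) were at least 2-fold higher, against 12.3% of all genes measured. None was 2-fold lower, 1 was at least 1.5-fold lower, and the median was 0.47. RB1, the retinoblastoma protein gene, went from 353 to 1143, 3.24-fold, and E2F5, a repressor E2F, from 69.5 to 220.0, 3.17-fold. RBBP4, a histone chaperone of MuvB, was 2.36-fold higher and LIN52, a MuvB subunit, had a log2 difference of 0.98. The gene that was lower, LIN37 of MuvB, was 1.51-fold lower. CDKN1C and RB1 were thus higher in the same RNA as 43 of the 45 mitosis genes, and whether they were so in the same cells was not measured.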
